A study of Caenorhabditis elegans with 2 samples.

Results

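The genes described here are the small nucleolar RNA (snoRNA) genes of Caenorhabditis elegans with a chromatin peak of the tagged DMD-9 protein beside them. A snoRNA gene was included where the summit of a peak in the joint list of both replicates lay inside the gene or within 100 bp of it. Of the 346 genes of biotype snoRNA in the Ensembl WBcel235 annotation, 53 met this rule (15.3%, 95% exact Clopper-Pearson interval 11.7 to 19.6%), beside 2.74% of all 46890 annotated genes, and the other 293 serve as the comparison. The 53 genes were chosen by the joint list, so their joint signal and their share of all snoRNA genes are descriptions and no test was made of them.

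Chromatin immunoprecipitation with sequencing (ChIP-seq) was done with an anti-GFP antibody on whole L4 larvae, 48 hours old, after synchronisation by bleaching and starvation at the L1 stage. The strain, RJP5357, carries the CRISPR insertion rp169(dmd-9::GFP::AID::TEV::3xFLAG) in the dmd-9 gene on chromosome IV. The series holds 1 group of 2 biological replicates of this strain and no other strain, stage or treatment, so the comparisons below are between genes and between peak lists. The fusion is expressed from the dmd-9 locus in an intact animal, and a peak list from whole larvae does not say in which cells the protein was bound. Sequencing depth is unknown, because the files give no read counts.

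DMD-9 belongs to the DM-domain family of transcription factors, named after doublesex and mab-3. snoRNAs guide the chemical modification of ribosomal and spliceosomal RNA: C/D box snoRNAs direct methylation of the ribose, and H/ACA box snoRNAs direct the conversion of uridine to pseudouridine. Many snoRNAs are released from introns of host genes, and others are transcribed from promoters of their own. In C. elegans some snoRNA genes are known to be transcribed by RNA polymerase III, which reads genes such as those of tRNAs. Promoters of tRNA type have an A box and, downstream of it, a B box, both contacted by the factor TFIIIC, and a run of T ends transcription by this polymerase.

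The DNA just upstream of many of these snoRNA genes carries 1 or more of a few sequence patterns, which differ between genes, so it is shown first. A B box was searched as GTTCNANNC on both strands from 250 bp before to 50 bp after each gene start. It was found at 27 of the 53 snoRNA genes with a summit (50.9%, 95% exact interval 36.8 to 64.9%), against 36 of the 293 other snoRNA genes (12.3%, 8.76 to 16.6%). It was found in 8.74% of the windows of protein-coding genes and in 10% of those of all annotated genes. At tRNA genes the share was 20.6%, and at small nuclear RNA (snRNA) genes, which encode RNAs of the spliceosome, it was 17.1%. These intervals, like all those below, cover counting error only, and genes are not replicates. On the strand of the snoRNA, 24 of the 53 genes with a summit (45.3%) held a B box that began 1 to 40 bp upstream of the gene, against 10 of the 293 other snoRNA genes (3.41%). The box thus lay in nearly the same place at gene after gene. Counting from 0 at the first base of the gene and negative upstream, its start ranged from -44 to -5 bp over 25 genes, with a median of -14 bp.

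The A box was searched as TNGC, any 2 bases, AG, any 2 bases and GG. It was present at 12 of the 53 genes with a summit (22.6%), 10 of the 293 other snoRNA genes (3.41%) and 1.7% of all annotated genes. The share was 20.1% at tRNA genes, whose own first 50 bp are part of the window, and 3.1% at snRNA genes. Where an A box and a B box stood together upstream on the gene strand, the B box began a median of 45 bp after the A box, with a range of 43 to 52 bp over 7 genes. Of the 8 snoRNA genes with both boxes on the gene strand anywhere in the window, 7 had a joint summit. A second spacing, GG, any 3 bases, A, any 2 bases and GG, was written after the upstream sequences had been read. Anywhere in the window on either strand, this second spacing was common. It was found at 50.9% of the genes with a summit, 27.3% of the other snoRNA genes and 20.9% of all annotated genes. On the gene strand these shares were 41.5%, 14% and 9.2%. At tRNA genes this spacing was found in 66.7% of windows on either strand and 59% on the gene strand. At snRNA genes these shares were 40.3% and 3.1%. With either spacing, 30 of the 53 genes with a summit had an A box 40 to 80 bp upstream (56.6%), against 17 of the 293 other snoRNA genes (5.8%). Both an A box of either spacing and a B box were in place at 20 of the 53 genes with a summit and at 4 of the 293 others. The places searched on the gene strand were also set after the values were seen. As a check of the letters, the B box was found inside 587 of 612 annotated tRNA genes (95.9%), and the second A box spacing inside 56% of them.

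To show the places of the boxes, 7 genes with both a B box and an A box of either spacing are given, on the snoRNA strand. Each runs from 100 bp upstream to the first 10 bases of the snoRNA. The 7 do not stand for every gene with a B box. Y23H5B.10 and C51F7.3, with joint signals of 178.2 and 231.9, have a B box and are not shown. The sequences are read from the RefSeq genome of build WBcel235. Capitals mark the A box, where one of its spacings matched, and the B box next to the gene.
T03F7.8 (chrV:11314158-11314267, plus strand): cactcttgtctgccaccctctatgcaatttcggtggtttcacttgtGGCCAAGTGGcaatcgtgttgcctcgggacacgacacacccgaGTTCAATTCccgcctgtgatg
W03C9.9 (chrII:11960798-11960907, plus strand): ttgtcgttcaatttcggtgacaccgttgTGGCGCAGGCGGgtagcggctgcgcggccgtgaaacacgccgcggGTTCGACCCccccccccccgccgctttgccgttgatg
F30H5.4 (chrIII:502704-502813, plus strand): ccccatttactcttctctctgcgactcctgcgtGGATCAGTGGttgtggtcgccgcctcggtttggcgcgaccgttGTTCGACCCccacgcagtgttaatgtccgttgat
Y43F8C.22 (chrV:19643178-19643287, minus strand): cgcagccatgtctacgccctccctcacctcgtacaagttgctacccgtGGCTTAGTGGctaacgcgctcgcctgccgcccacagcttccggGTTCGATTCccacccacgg
C41C4.11 (chrII:8107261-8107370, minus strand): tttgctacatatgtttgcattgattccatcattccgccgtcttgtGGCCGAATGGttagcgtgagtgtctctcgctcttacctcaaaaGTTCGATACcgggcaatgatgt
Y75B12B.12 (chrV:15191084-15191193, minus strand): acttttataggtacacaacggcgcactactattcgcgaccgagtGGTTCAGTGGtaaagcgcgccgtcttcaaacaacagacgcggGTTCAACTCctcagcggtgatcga
C05D2.15 (chrIII:5602170-5602279, minus strand): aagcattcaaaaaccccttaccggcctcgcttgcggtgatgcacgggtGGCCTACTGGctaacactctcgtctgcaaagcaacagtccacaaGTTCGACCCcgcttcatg

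The boxes end before the annotated snoRNA begins, except at C05D2.15, where the last base of the B box is the first of the gene. T03F7.8, Y43F8C.22 and C05D2.15 lie in introns of protein-coding genes, and W03C9.9, F30H5.4, C41C4.11 and Y75B12B.12 lie between genes. The summit was 24 bp upstream of T03F7.8, 58 bp upstream of W03C9.9, 24 bp upstream of F30H5.4 and 20 bp upstream of Y43F8C.22.

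A second sequence pattern stood upstream of other genes with a summit. It was written after the upstream sequences had been read, as CGNAACNNG, any 5 bases and TGTCNG, so its share among the genes with a summit is partly set by that choice. It was found at 11 of the 53 genes with a summit (20.8%, 10.8 to 34.1%) and at 20 of the 293 other snoRNA genes (6.83%, 4.22 to 10.3%). It was rare elsewhere, in 0.0751% of protein-coding windows, 0.271% of the windows of all annotated genes and 0 of 612 tRNA gene windows, with an exact upper limit of 0.601%. It was also found before 22 of 129 snRNA genes (17.1%). No snoRNA gene held both the B box and the second pattern on its strand. The second pattern began at -83 to -60 bp over the 11 genes, with a median of -63 bp. To show the spacing of its parts, 6 of these genes are given in the same window, with both parts of the pattern in capitals.
ZK994.7 (chrV:8500479-8500588, plus strand): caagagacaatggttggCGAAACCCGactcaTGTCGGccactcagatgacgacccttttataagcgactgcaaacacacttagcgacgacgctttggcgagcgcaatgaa
Y53F4B.47 (chrII:15025884-15025993, minus strand): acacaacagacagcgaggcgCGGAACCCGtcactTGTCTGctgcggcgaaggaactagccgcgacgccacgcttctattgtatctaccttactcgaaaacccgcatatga
C16D9.11 (chrV:8228960-8229069, minus strand): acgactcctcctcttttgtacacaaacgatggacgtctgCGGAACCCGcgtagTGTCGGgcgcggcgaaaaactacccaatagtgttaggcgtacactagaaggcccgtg
T26A8.6 (chrIV:8428730-8428839, minus strand): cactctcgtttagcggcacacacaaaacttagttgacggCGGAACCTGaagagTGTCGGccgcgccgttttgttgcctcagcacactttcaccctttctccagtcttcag
Y67A10A.14 (chrIV:14327112-14327221, minus strand): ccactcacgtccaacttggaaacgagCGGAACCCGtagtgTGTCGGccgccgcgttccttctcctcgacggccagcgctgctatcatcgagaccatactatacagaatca
C08D8.3 (chrV:8349008-8349117, plus strand): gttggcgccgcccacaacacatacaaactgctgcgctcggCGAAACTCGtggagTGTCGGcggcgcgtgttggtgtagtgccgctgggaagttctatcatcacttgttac

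Joint summits were found at a part of the genes with each pattern, and the intervals overlapped. Of the 30 snoRNA genes with the second pattern on their strand, 11 had a joint summit (36.7%, 19.9 to 56.1%). Of the 51 snoRNA genes with a B box on their strand, 26 had one (51%, 36.6 to 65.2%). The joint signal had a median of 116.2 over the 11 genes with the second pattern and 137.1 over the 25 genes with a B box from 150 bp upstream to 10 bp inside, and the ranges overlapped, at 61.15 to 342.5 and 65.55 to 249.3. An A box of either spacing or a B box in place, or the second pattern anywhere in the window, was counted on the gene strand. This held for 45 of the 53 genes with a summit (84.9%), against 42 of the 293 other snoRNA genes (14.3%). The second A box spacing, the second pattern and the places were set after the sequences or values had been seen. This contrast is therefore partly set by that choice and is a description only.

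The 8 genes with a summit and none of these in place included some of the strongest. They were F39B2.14, C51F7.4, C51F7.3, B0334.12, T04A8.17, Y53F4B.48, C46C2.8 and H09I01.2. F39B2.14 overlaps an exon of tmem-107, and its summit was 22 bp upstream of a 5′ end of that protein-coding gene. C51F7.3 had its nearest B box 44 bp upstream, just outside the stretch used for the count.

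**Figure D1:**
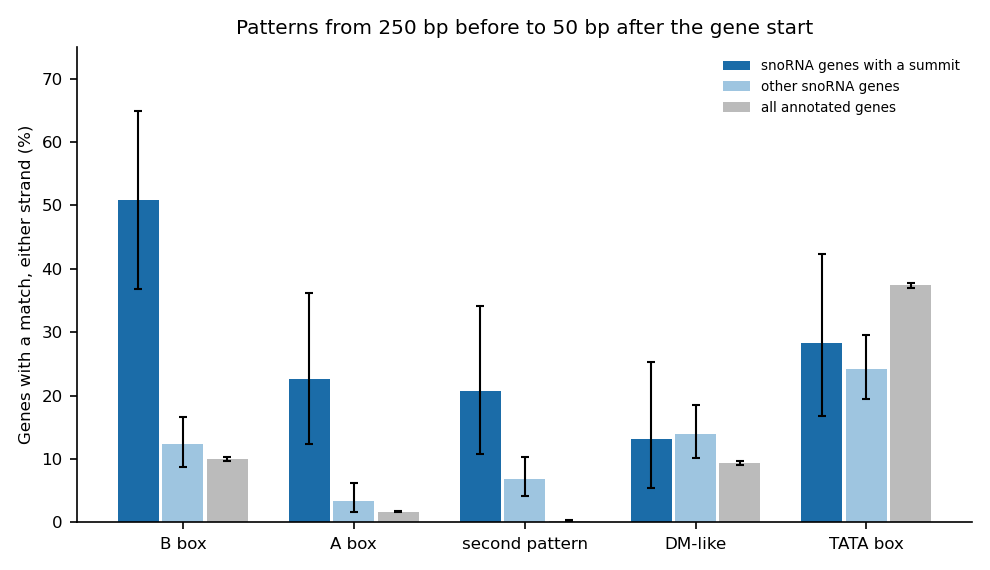
Share of genes (y axis, percent) with a match on either strand from 250 bp before to 50 bp after the gene start, for the 53 snoRNA genes with a summit, the 293 other snoRNA genes and all 46890 annotated genes; bars are shares and lines are 95% exact intervals. The B box, the A box and the second pattern were more frequent at the snoRNA genes with a summit, and the DM-like letters and the TATA box were not.

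The letters ACANTGT, used here as a DM-like pattern, did not mark the genes with a summit. They were found at 7 of the 53 genes with a summit (13.2%, 5.48 to 25.3%), 41 of the 293 other snoRNA genes (14%) and 9.39% of all annotated genes. Within 50 bp of the summit they were found at 2 of the 52 peaks beside snoRNA genes (3.85%) and at 2.64% of the other joint peaks. The TATA box, searched as TATAAA, was present at 15 of the 53 genes with a summit (28.3%), 71 of the 293 others (24.2%) and 37.4% of all annotated genes. A match is a description of letters in these windows and not a binding site.

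The patterns were also counted with the summit, rather than the gene, as the anchor. Each summit lies within 100 bp of its gene by the rule. These windows therefore mostly hold the upstream DNA already searched and are not a separate check. Within 50 bp on each side, the B box was found at 20 of the 52 peaks beside snoRNA genes (38.5%, 25.3 to 53%), against 180 of the 1327 other joint peaks (13.6%, 11.8 to 15.5%). The second pattern was found at 7 of the 52 peaks (13.5%) and at 3 of the 1327 others (0.226%). It was written from the sequences upstream of these genes, so the first share is partly set by that choice.

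Downstream of the genes, a run of TTTT on the gene strand within 30 bp of the 3′ end was present at 46 of the 53 genes with a summit (86.8%, 74.7 to 94.5%). It was present at 137 of the 293 other snoRNA genes (46.8%, 40.9 to 52.6%) and at 46.2% of all annotated genes. The genes with a summit were also shorter. Their median annotated length was 80 bp, with quartiles of 71 and 131 bp, against 132 bp and quartiles of 106 and 171 bp for the other snoRNA genes. Many of the other snoRNA genes belong to a single run of neighbouring gene identifiers. Among the 53 genes, only F39B2.14 and C51F7.4 belong to it. The part of such a difference in annotation in the contrasts of length, TTTT, class letters and upstream patterns was not tested.

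Both snoRNA classes were found among the genes with a summit, as far as simple letters show. C/D letters were TGATGA in the first 25 bases and CTGA in the last 25. They were found in 8 of the 53 genes with a summit (15.1%, 6.75 to 27.6%) and 7 of the 293 others (2.39%, 0.966 to 4.86%). H/ACA letters (ACA in the last 8 bases) were found in 14 of the 53 genes with a summit (26.4%) and 77 of the 293 others (26.3%). The remaining 31 genes with a summit and 209 others matched neither, so most of them could not be put in a class by these letters.

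The 53 genes were served by 52 of the 1379 joint peaks, because the neighbouring genes C51F7.4 and C51F7.3 share a summit. No summit of the 53 genes lay within 100 bp of an annotated tRNA, snRNA or microRNA gene. An annotated gene of the general biotype ncRNA lay within 100 bp of 17 of the 52 summits (32.7%), against 19.1% of the other joint peaks. By chromosome, 14 of 74 snoRNA genes on I had a summit, 11 of 71 on II, 4 of 54 on III, 10 of 59 on IV, 13 of 55 on V and 1 of 33 on X. The exact intervals of chromosome V (13.2 to 37%) and chromosome X (0.0767 to 15.8%) overlapped.

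Peak strength was read from the signal value that the authors deposited for each peak, whose scale is not given in the sources used here. The 52 peaks beside snoRNA genes had a median signal of 129.4, with quartiles of 98.22 and 156.7 and a range of 61.15 to 342.5. The other 1327 joint peaks had a median of 84.59. Of the 52 peaks, 41 (78.8%) were above the median of all joint peaks, 85.4, and 7 (13.5%, 5.59 to 25.8%) were among the 100 strongest, against 93 of the 1327 others (7.01%, 5.69 to 8.52%). For comparison, the joint peaks at tRNA genes had a median of 96.58 (n = 221) and those at snRNA genes a median of 107.5 (n = 19). Most peaks beside snoRNA genes were therefore in the upper part of the list, and the intervals of the shares among the 100 strongest overlapped.

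The strongest peak belonged to F59C6.15, an independent gene with the second pattern, at chromosome I, positions 10516978 to 10517150, minus strand. Its signal was 342.5 jointly, with 199.2 in replicate 1 and 153.6 in replicate 2, the highest of the 53 genes in each, and the gene has close copies elsewhere in the genome, described last. F39B2.14 followed with 274.1 jointly, with 137.7 in replicate 1 and 148.9 in replicate 2. ZK994.7, in an intron of pxn-1, the gene of a peroxidasin, had 269.3 jointly, with 139.3 in replicate 1 and 132.4 in replicate 2. These 3 genes were at or near the top in both replicates: no other gene of the 53 was above 119 in replicate 1, and C51F7.3 and C51F7.4, on their shared peak, were the only others above 122.8 in replicate 2.

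T03F7.8 had a signal of 249.3 jointly, with 119 in replicate 1 and 122.8 in replicate 2. The peak shared by C51F7.4 and C51F7.3 had 231.9 jointly, with 90.49 in replicate 1 and 137.9 in replicate 2, and its summit lay inside C51F7.4 and 78 bp upstream of C51F7.3. W03C9.9 had 215.9 jointly, with 111 in replicate 1 and 103.1 in replicate 2. The replicates gave T03F7.8 and W03C9.9 nearly the same signal, and the shared peak of C51F7.4 and C51F7.3 a higher one in replicate 2. B0334.12 had 194.7 jointly, 90.89 in replicate 1 and 106.5 in replicate 2. F30H5.4 had 185.4 jointly, 91.77 in replicate 1 and 86.68 in replicate 2. The next 3 genes were all higher in replicate 2. Y23H5B.10 had 178.2 jointly, 76.53 in replicate 1 and 96.27 in replicate 2. Y53F4B.47 had 172.5 jointly, 64.68 in replicate 1 and 106.8 in replicate 2. Y43F8C.22 had 165.3 jointly, 65.13 in replicate 1 and 94.22 in replicate 2.

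The weakest joint signals were those of T10B9.11 with 65.55, C14C10.8 with 63.92 and Y55F3BR.9 with 61.15. T10B9.11 had 44.43 in replicate 1 and 21.5 in replicate 2, C14C10.8 had 26.36 and 39.23, and Y55F3BR.9 had 35.98 and 31.01. None of the 3 was in either replicate's thresholded list. T10B9.11 nevertheless has both the A box and the B box, and Y55F3BR.9 has the second pattern, so the upstream patterns were present at weak peaks as well as at strong ones.

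The deposited signals of most of these genes were of similar size in the 2 replicates. The joint list was itself cut by how well 2 rankings of peaks agree, so this may be partly set by that choice. Of the 53 genes, 50 had a ranked peak in each replicate with a summit within 100 bp of the joint summit. The ratio of replicate 2 to replicate 1 had a median of 1.007 over these 50 genes, with a range of 0.4839 to 1.786, and 39 of 50 were within 1.5 times. The signal was higher in replicate 2 at 25 of the 50 genes. The quartiles of the ratio were 0.856 and 1.326. The other joint peaks had a median ratio of 1.097, with quartiles of 0.876 and 1.406 (n = 1223). No replicate 1 summit within 100 bp of the joint one was found for C41C4.11 and C04G6.12, and no replicate 2 summit for T26A8.6, whose replicate 2 summit near the gene lay farther than that from the joint one. The signals of the 2 lists are not scaled to each other, so a ratio near 1 is a description only.

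**Figure D2:**
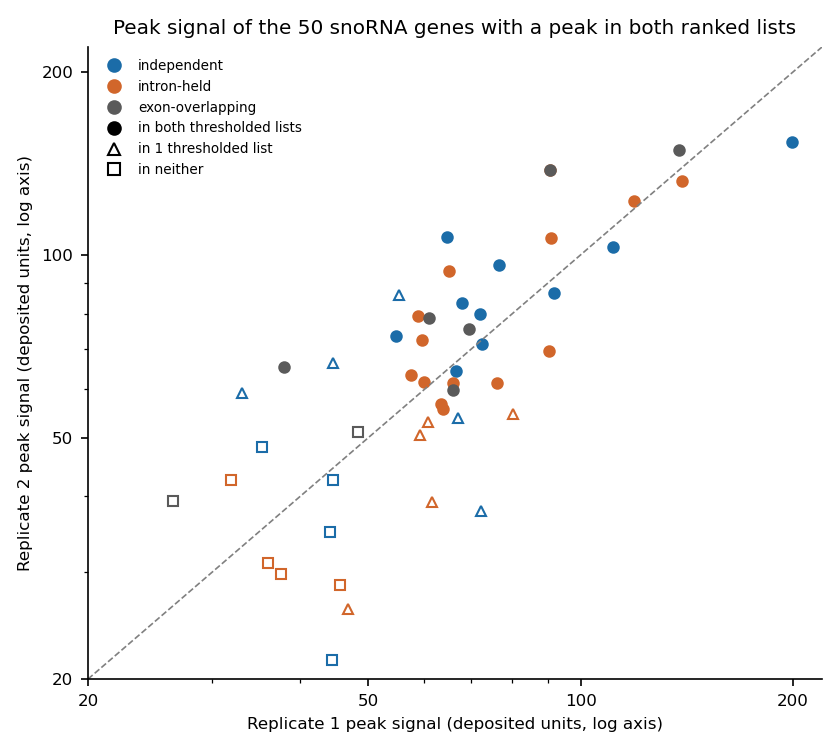
Deposited peak signal of replicate 1 (x axis) and replicate 2 (y axis), both on log axes, for the 50 snoRNA genes with a ranked peak in both; colours give the gene's context, symbols the number of thresholded replicate lists that hold the gene, and the dashed line equal signals. The genes lie about the line, and those in neither list lie at its low end.

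Presence in each replicate's own thresholded list was recorded separately, though these lists come from the same reads as the joint list and are not independent of it. Replicate 1's list held 37 of the 53 genes (69.8%) and replicate 2's list held 35 (66%). Both lists held 30 of them (56.6%, 42.3 to 70.2%), 7 were in replicate 1's list only, 5 in replicate 2's list only and 11 in neither. Over all snoRNA genes, 40 of 346 (11.6%) had a summit in replicate 1's list, beside 1.28% of all annotated genes. In replicate 2's list 35 of 346 (10.1%) had one, beside 1.12% of all annotated genes. The conservative list held 46 of the 53 genes (86.8%) and 47 snoRNA genes in all (13.6%), beside 2.63% of all annotated genes.

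A larger share of the peaks beside snoRNA genes than of the other joint peaks had a summit in each replicate's list. Of the 52 peaks, 36 (69.2%, 54.9 to 81.3%) had a summit of replicate 1's list within 100 bp, against 504 of the 1327 other joint peaks (38%, 35.4 to 40.7%). For replicate 2's list it was 33 of 52 (63.5%, 49 to 76.4%), against 484 of 1327 (36.5%, 33.9 to 39.1%). For both lists it was 29 of 52 (55.8%), against 332 of 1327 (25%). Their stronger signal stands beside this difference, and its part in it was not tested. In the joint list, 11 of the 52 peaks (21.2%) had a deposited q-value above 0.05, against 52.5% of the other joint peaks.

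Signal differed with list presence. The 30 genes in both replicate lists had a median joint signal of 148.5 (104.1 to 342.5) and the 11 in neither a median of 74.04 (61.15 to 103.7), so the ranges did not overlap. The signal and the lists come from the same reads. The 5 genes in replicate 2's list only, C41C4.11, F25H2.15, C53B7.8, T26A8.6 and Y67A10A.14, were all independent genes. Of the 7 in replicate 1's list only, 5 were intron-held and 2 independent. These genes were named after their values were seen.

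The joint list was cut by the authors at an irreproducible discovery rate (IDR), a measure of how poorly 2 rankings of peaks agree, and the highest global IDR in it is 0.00997. Just inside were T24H7.6 with an IDR of 0.00919 and a signal of 76.22, and C08D8.3 with 0.00911 and 67.42. Just outside, in the ranked list, were F19H8.6 with an IDR of 0.0144 and a signal of 61, and C04F12.17 with 0.0164 and 54.25. C27H6.5 with 0.0174 and 84.37, and K02C4.7 with 0.0179 and 61.11, came next. The lowest signal inside was 61.15, so C27H6.5 was above it and the other 3 were below it. F19H8.6, C04F12.17 and K02C4.7 were named after their values were seen. The 4 highest ranked signals among the genes without a joint summit were all above 61.15. C27H6.5 had a signal of 84.37 and an IDR of 0.0174, C05H8.3 had 66.71 and 0.0208, F17C11.25 had 64.92 and 0.0187, and F47G4.9 had 64.33 and 0.0275. C05H8.3 and F47G4.9 carry the second pattern, 60 bp upstream in each. C27H6.5 was in the conservative list and in replicate 1's list, and C05H8.3 and F38E11.14 were in replicate 1's list.

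Of the 293 other snoRNA genes, 147 (50.2%) had a peak of the ranked joint list with a summit within 100 bp, which is near the 51.3% of all annotated genes in this permissive list. These peaks had a median signal of 28.79 and a highest of 84.37. Other snoRNA genes with the second pattern on their strand anywhere in the window had a ranked peak in 13 of 19 genes, with a median signal of 40.93. At W07G1.23, among these, the pattern began at -207 bp and the signal was 12.27. Other snoRNA genes with a B box 1 to 40 bp upstream had one in 6 of 10 genes, with a median of 31.91. The remaining genes had one in 128 of 264 (48.5%), with a median of 27.44, and the ranges of these groups overlapped.

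Summits lay upstream of the snoRNA genes and not over them. On the same scale, the median summit position was -39 bp, with quartiles of -65 and -13 bp and a range of -98 to 129 bp. Of the 53 summits, 48 (90.6%, 79.3 to 96.9%) were upstream, 29 of them 1 to 50 bp and 19 of them 51 to 100 bp from the gene. The rule bounds the distance at 100 bp on each side but does not fix the side. In replicate 1's own list the median was -36 bp over 40 genes, and in replicate 2's list it was -39 bp over 35 genes. The ranked summits at the 147 other snoRNA genes with one had a median position of 26 bp, and 54 of them (36.7%, 28.9 to 45.1%) were upstream.

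Only 5 summits were not upstream. Those of W08G11.6, H04D03.5, C08D8.3 and C51F7.4 were inside the gene, 10, 25, 29 and 31 bp from its first base. That of B0334.12 was 60 bp past the 3′ end of the gene, at a position of 129 bp, and no A box, B box or second pattern was in place upstream of B0334.12. The farthest upstream summits were those of H09I01.2 at 98 bp, F39B2.14 at 83 bp and K11C4.6 at 80 bp. Beyond the limit, the nearest summits were 109 bp from F09G2.14 with a signal of 82.29, 129 bp from ZK546.18 with 115.1 and 203 bp from smy-2, a gene of an Sm Y RNA in the snoRNA biotype, with 68.47. At a distance of 200 bp, 55 genes would be included.

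Where a B box was present, the summit usually lay on its far side from the gene. Over 25 genes the summit was a median of 24 bp upstream of the B box start (-24 bp, range -67 to 40 bp), and 23 of the 25 summits were upstream of it. Over the 11 genes with the second pattern, the summit was a median of 31 bp downstream of the start of the pattern, with a range of -1 to 89 bp. The summits of F59C6.15 and Y67A10A.14 were 2 bp after and 1 bp before that start. Replicate 1's nearest ranked summit lay a median of 18 bp from the joint summit (0 to 69 bp, n = 51 genes). For replicate 2 the median was 11 bp (0 to 85 bp, n = 52 genes). The offset of a single gene is therefore approximate, and offsets of 1 or 2 bp are smaller than these shifts.

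**Figure D3:**
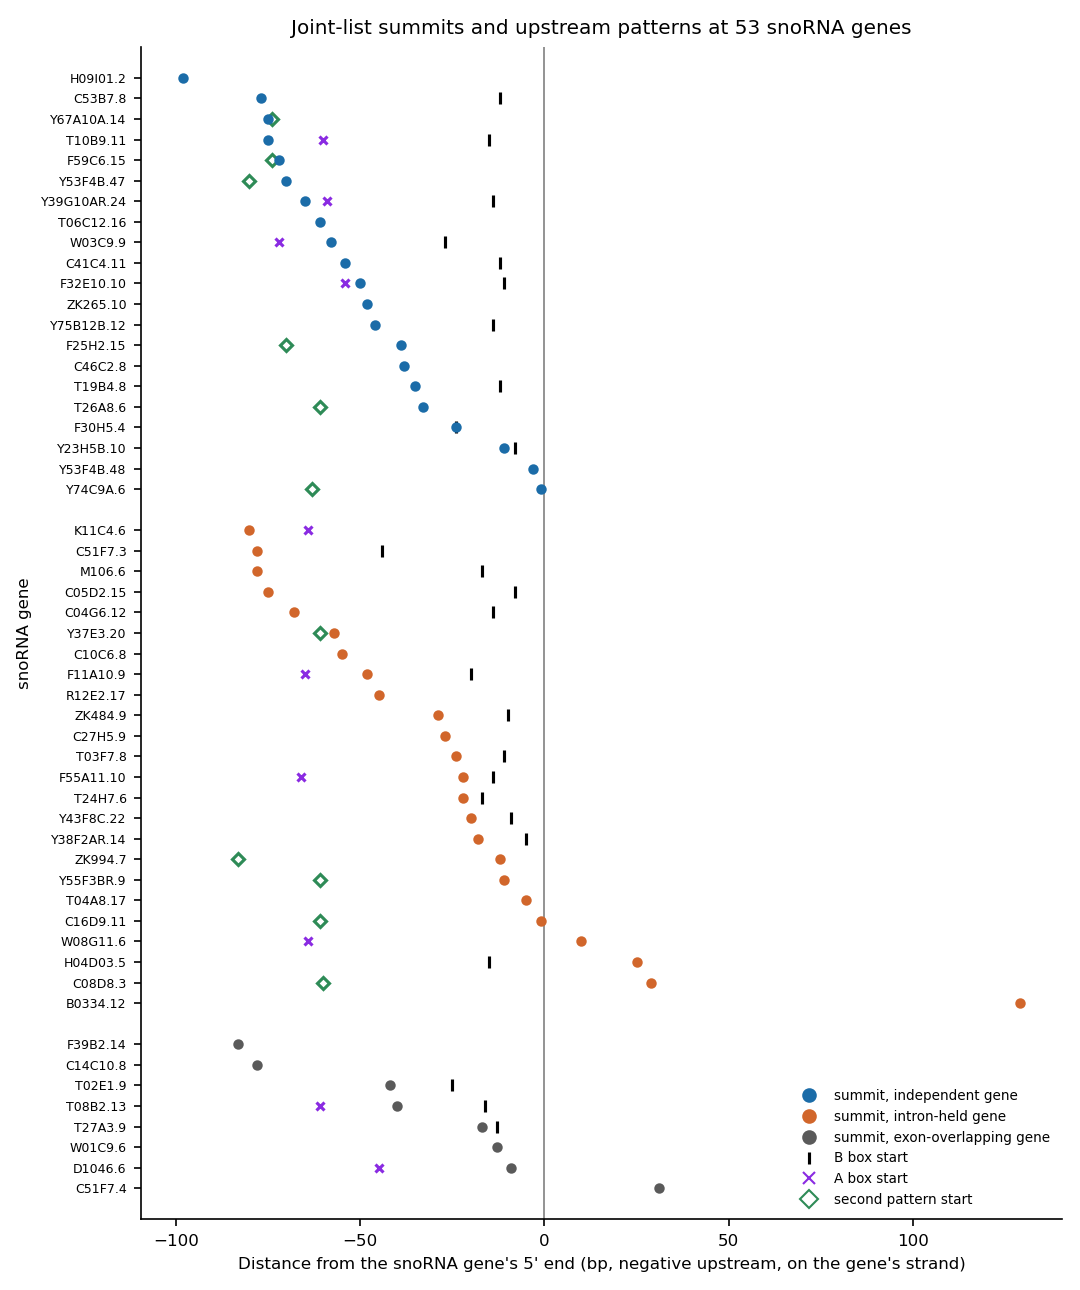
Position of the joint summit (filled circles, coloured by context) and of the starts of the B box, the A box of the first spacing and the second pattern on the gene strand, for each of the 53 snoRNA genes (y axis); the x axis is the distance in bp from the gene's 5′ end, negative upstream. Of the 53 summits, 48 lie left of 0, and the B box starts line up just before it.

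Independent genes and genes held in introns had summits at shares whose intervals overlapped. A gene was called independent where it lay outside every protein-coding gene, long non-coding RNA and pseudogene, and intron-held where it lay inside one and touched none of its exons. Of 119 independent snoRNA genes, 21 had a joint summit (17.6%, 11.3 to 25.7%). Of 168 intron-held genes, 24 had one (14.3%, 9.37 to 20.5%), and of 59 that overlapped an exon, 8 had one (13.6%, 6.04 to 25%). All 3 shares were above the 2.74% of all annotated genes, and their intervals overlapped. The order of independent and intron-held genes was not the same in the replicates. In replicate 1's list 12 of 119 independent genes (10.1%) and 22 of 168 intron-held genes (13.1%) had a summit, and in replicate 2's list 15 of 119 (12.6%) and 14 of 168 (8.33%).

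**Figure D4:**
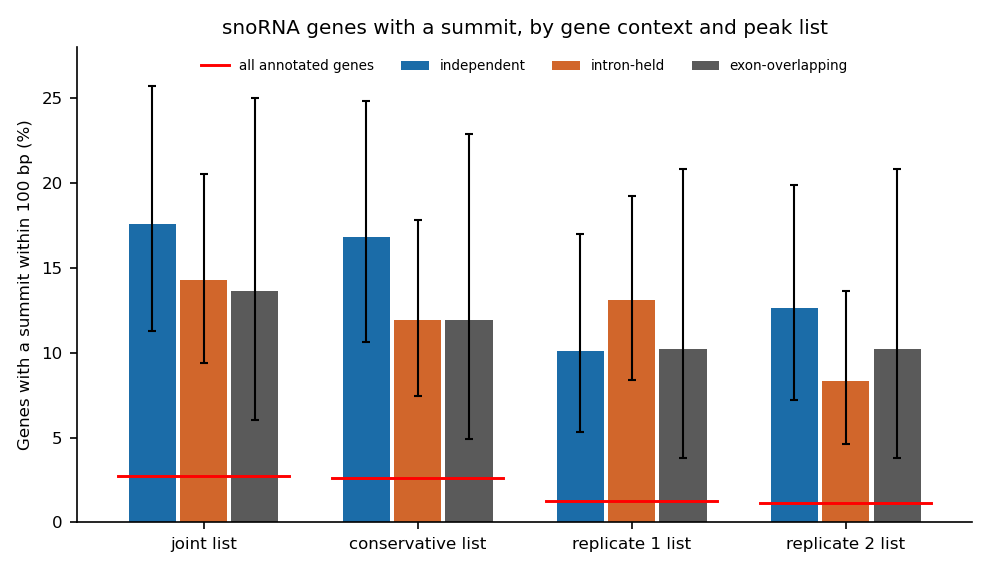
Share of snoRNA genes with a summit within 100 bp (y axis, percent) by gene context in the joint list, the conservative list and each replicate's own list; bars are shares, black lines 95% exact intervals and red lines the share of all annotated genes in the same list. Intervals of the 3 contexts overlap within every list, and all shares are above the red line.

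Intron-held genes were split by the strand of the host. Of 28 genes that lay against the strand of their host, 8 had a joint summit (28.6%, 13.2 to 48.7%), and of 140 on the same strand, 16 had one (11.4%, 6.68 to 17.9%). The intervals overlapped. The order was the same in the replicate lists, with 6 of 28 (21.4%) against 16 of 140 (11.4%) in replicate 1's, and 5 of 28 (17.9%) against 9 of 140 (6.43%) in replicate 2's.

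The hosts of the strongest intron-held genes were pxn-1 for ZK994.7, cutl-18 for T03F7.8, frm-7 for C51F7.3, twk-5 for B0334.12, Y43F8C.7 for Y43F8C.22, catp-8 for C10C6.8, ppat-1 for T04A8.17, madf-11 for C05D2.15, pdl-1 for C27H5.9 and mix-1 for M106.6. MIX-1 is a subunit of condensin and of the dosage compensation complex, CATP-8 is a P-type ATPase, FRM-7 has a FERM domain, and TWK-5 belongs to the TWIK family of potassium channels. T03F7.8, B0334.12, T04A8.17 and C27H5.9 lay opposite to their host. C10C6.8 had a signal of 163.8, T04A8.17 of 144.2, C05D2.15 of 140.3, C27H5.9 of 134.4 and M106.6 of 130.9. Ribosomal protein genes named rpl or rps, which are common snoRNA hosts, held none of the 24 intron-held genes with a summit, against 19 of the 144 other intron-held snoRNA genes (13.2%). This count was made after the hosts had been seen, and the exact upper limit for 0 of 24 is 14.2%.

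The summits of intron-held genes mostly lay away from protein-coding 5′ ends. Only 2 of the 24 lay from 1000 bp upstream to 200 bp downstream of a protein-coding 5′ end, those of F55A11.10 and Y37E3.20. The median distance to the nearest protein-coding 5′ end was 1219 bp, with a range of 102 to 6082 bp. ZK994.7's summit was 5678 bp and M106.6's 15993 bp downstream of the 5′ end of the host. Of the 21 independent genes, 8 had a summit in such a window, and of the 8 exon-overlapping genes, 5 did. In all, 15 of the 52 peaks beside snoRNA genes (28.8%, 17.1 to 43.1%) were in a protein-coding 5′ window, against 658 of the 1327 other joint peaks (49.6%, 46.9 to 52.3%).

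Signals and positions overlapped between the contexts, and the upstream patterns were found in both independent and intron-held genes. The median joint signal was 137.1 over independent genes (65.55 to 342.5), 122.4 over intron-held genes (61.15 to 269.3) and 136 over exon-overlapping genes (63.92 to 274.1). The median summit position was -50 bp over independent genes, -23 bp over intron-held genes and -28.5 bp over exon-overlapping genes, and all 21 independent summits, 20 of 24 intron-held ones and 7 of 8 exon-overlapping ones were upstream. A B box on the gene strand was present at 10 of 21 independent genes with a summit against 5 of 98 independent genes without. It was present at 12 of 24 intron-held genes with a summit against 14 of 144 without, and at 4 of 8 exon-overlapping genes with a summit against 6 of 51 without. The second pattern was present at 6 of 21 independent and 5 of 24 intron-held genes with a summit, against 9 of 98 and 10 of 144 without. It was at 0 of 8 exon-overlapping genes with a summit and 0 of 51 without.

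Some of these sequences have close copies, where reads could be placed at more than 1 site. A second copy of the gene, at 90% identity over at least 50% of its length, was found for 7 of the 53 genes with a summit (13.2%) and 40 of the 293 others (13.7%). For the 100 bp upstream it was 2 of 53 (3.77%) against 32 of 293 (10.9%), and for the peak sequence 2 of 52. F59C6.15 and Y67A10A.14 each matched 6 gene copies and F25H2.15 matched 5, counting themselves. The 100 bp upstream matched 2 copies for F59C6.15 and F25H2.15 and 1, its own, for Y67A10A.14. The values of these 3 genes are less certain, above all those of F59C6.15 and F25H2.15. T08B2.13 and D1046.6 overlap annotated tRNA pseudogenes, as do 2 of the 293 other snoRNA genes.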

How the data were processed

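ChIP-seq of GFP-tagged DMD-9 was done in 2 biological replicates of L4 larvae, per the labels. The authors deposited peak lists in ce11 coordinates (the sequence of WBcel235), with chromatin sheared to 200 to 800 bp per the labels' protocols. Each list was derived from a replicate, or both replicates together, and a control library, per the file headers, and the thresholded lists also from 1 further file that the headers do not describe. The control was not used here. No aligner or peak caller is given in the sources used here. The deposited signal value of each peak has no stated scale. The deposited −log10 q-value and, in the ranked lists, the deposited −log10 global IDR were turned back into q-values and IDRs.

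Summits were joined to Ensembl release 115 genes at 100 bp with Python 3.11.15 and numpy 2.4.6, exact Clopper-Pearson intervals came from scipy 1.17.1, figures from matplotlib 3.10.9, and copies were counted with blastn 2.17.0 at 90% identity over 50% of the query. Where a gene had several summits, the strongest was used. The functions for distance, position and patterns were tested on simulated data. With 1 group, no test was run. The genes and patterns were chosen with earlier results of these data known. The genes named are the 12 strongest, 3 weakest and 3 farthest, the 10 strongest intron-held, 3 others just beyond the distance and 4 others of highest ranked signal; any further gene was named after its values were seen. Alternatives changed the distance, the list, the IDR or q limit, the gene assignment, the host definition and the B box letters and window.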

Additional observations from a re-analysis of the deposited data

How the results depend on the processing

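No paired analysis was possible because the series has 1 group. Of 50 values recomputed with another setting, 40 stayed within a count of 1.5 times, a share's 95% interval or, for the position, the quartiles of the 53 summits; 9 left these limits and 1 changed sign. The limits are wide. With the summit inside the gene (0 bp), the count of snoRNA genes was 4, the share of independent genes 0%, the share of intron-held genes 1.79% and the median position 27 bp, which that limit itself makes positive. At 50 bp the count was 33, the share of independent genes 9.24%, the share of intron-held genes 9.52% and the median position -22 bp. With 1 replicate's own list in place of the joint list, the count was 35 to 40, the share of independent genes 10.1 to 12.6%, the share of intron-held genes 8.33 to 13.1%, the median position -39 to -36 bp and the share with a B box 51.4 to 52.5%. With the letters GTTCGAA, the share with a match was 3.77%, beside 3.41% of the other snoRNA genes and 4.25% of all annotated genes. These letters ask for an A after GTTCGA, which GTTCNANNC does not, and they leave out its last C. None of the B boxes printed above holds GTTCGAA. The difference in B boxes was thus seen with GTTCNANNC and not with GTTCGAA. Whether it holds with stricter forms of GTTCNANNC itself was not tested. At 200 bp, in the conservative list, at an IDR of 0.001, at a q-value of 0.05 and with each summit given to its nearest gene, the counts were 55, 47, 37, 42 and 52. At an IDR of 0.001 the share of intron-held genes was 9.52% and that of independent genes 12.6%. Depth is unknown, so which genes missed a summit for want of reads was not tested.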
